A study of Mus musculus with 2 samples.

Results

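Wide accessible peaks are the stretches of open chromatin that DNase-seq called as 500 bp or more in the gastrocnemius, the mostly fast-twitch calf muscle of the mouse. The assay sequences the ends of DNA fragments that the nuclease DNase I releases from nuclei, so a peak marks DNA left accessible between nucleosomes. There was 1 group of 2 libraries, each from the gastrocnemius of a male B6CASTF1/J mouse, a first-generation hybrid of the C57BL/6J and CAST strains, aged 25 days, with no treatment named. The descriptions number a different male for each library although a single donor identifier is attached to both, and the spread between the libraries may be partly technical. Members were chosen by width and position. A member was a peak of the longer of the 2 deposited peak lists of a library that was 500 bp or wider and overlapped by at least 1 bp a peak of the longer list of the other library. By this rule 1774 of 97499 peaks of replicate 1 and 3328 of 61664 peaks of replicate 2 were members. They made up 3.57% (3.41% to 3.73%, Wilson 95% interval) of the 49760 shared peaks of replicate 1 and 6.77% (6.56% to 7.0%) of the 49123 of replicate 2. The other 47986 and 45795 shared peaks, all narrower than 500 bp, are what they are set against below. Intervals cover counting error only, and a single group of 2 libraries allows no test over samples, so each comparison is given in both libraries.

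A nucleosome wraps a stretch of DNA that DNase I cuts poorly, and most accessible sites are about as long as the gap left when a few proteins displace 1 nucleosome. Longer open stretches are best known at CpG islands, the GC-rich and CpG-rich promoter regions of housekeeping and developmental genes, where several neighbouring nucleosomes can be missing or unstable. CTCF, an architectural DNA-binding protein, is known for the opposite shape: a single short site flanked by well-placed nucleosomes. Whole muscle holds multinucleate fibres together with satellite cells, fibroblasts, vessels and nerve, and in such a sample a site open in fewer cells and a site less open per cell cannot be told apart. Promoter peaks shared by both libraries lay at the muscle genes Myod1, Ckm, Actn3 and Acta1, while the leukocyte gene Ptprc and the hepatocyte gene Alb had none. Other genes of such lists did not all follow this. Shared promoter peaks lay at 3 of 15 leukocyte, 1 of 12 hepatocyte, 6 of 13 neuron and 3 of 10 keratinocyte genes. Among sarcomere genes they lay at 24 of 25 pan-fibre and triad, 12 of 16 fast and 4 of 14 slow ones.

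The sequences below show what the widest of these regions hold: the first 3 are from the regions with the greatest mean width over the libraries among those that overlap the 1 kb around a coding start, and the last 2 are distal regions from the top of the same ranking. Each is the plus strand of mm10 at the stretch of up to 300 bases that lies nearest to the centre of the shared interval and is free of annotated UTRs, read from the RefSeq assembly, so the letters are those of C57BL/6J and not of the CAST allele. Capitals mark every CpG dinucleotide.
Jade2 promoter, chr11:51856981-51857280: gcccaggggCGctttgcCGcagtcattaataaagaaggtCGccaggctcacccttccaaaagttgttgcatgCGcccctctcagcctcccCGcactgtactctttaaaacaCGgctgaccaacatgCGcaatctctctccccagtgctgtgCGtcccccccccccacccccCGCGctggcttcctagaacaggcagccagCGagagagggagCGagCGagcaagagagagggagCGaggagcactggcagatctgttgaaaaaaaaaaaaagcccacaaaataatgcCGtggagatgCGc
Hic1, inside the gene, chr11:75166837-75167136: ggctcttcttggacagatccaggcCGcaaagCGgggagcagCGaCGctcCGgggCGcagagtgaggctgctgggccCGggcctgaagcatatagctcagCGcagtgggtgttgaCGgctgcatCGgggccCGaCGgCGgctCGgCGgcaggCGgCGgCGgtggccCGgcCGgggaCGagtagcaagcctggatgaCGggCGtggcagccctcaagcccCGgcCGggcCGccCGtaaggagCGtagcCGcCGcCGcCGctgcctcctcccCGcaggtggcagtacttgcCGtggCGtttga
Shisa3 promoter, chr5:67607341-67607640: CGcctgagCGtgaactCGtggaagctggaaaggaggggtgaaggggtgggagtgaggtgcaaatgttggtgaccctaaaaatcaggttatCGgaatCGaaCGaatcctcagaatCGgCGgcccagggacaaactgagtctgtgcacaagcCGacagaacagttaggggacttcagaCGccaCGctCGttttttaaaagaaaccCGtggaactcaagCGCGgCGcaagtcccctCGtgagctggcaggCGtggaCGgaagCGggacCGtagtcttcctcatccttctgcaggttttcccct
exon of the noncoding 2810410L24Rik, chr11:120185571-120185870: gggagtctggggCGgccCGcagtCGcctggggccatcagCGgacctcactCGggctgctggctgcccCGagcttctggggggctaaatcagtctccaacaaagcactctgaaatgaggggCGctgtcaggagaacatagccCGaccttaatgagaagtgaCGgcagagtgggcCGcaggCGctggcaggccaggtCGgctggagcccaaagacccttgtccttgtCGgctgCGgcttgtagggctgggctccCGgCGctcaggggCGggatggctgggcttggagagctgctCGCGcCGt
coding exon of Mex3b, chr7:82868961-82869100: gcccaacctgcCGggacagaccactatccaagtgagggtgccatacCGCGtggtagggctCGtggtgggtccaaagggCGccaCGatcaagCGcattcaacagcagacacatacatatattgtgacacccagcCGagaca
The Hic1 stretch held 35 CpGs in 300 bases and was 72.7% GC, with an observed over expected CpG of 0.895. The Jade2 stretch held 16 CpGs at 58.0% GC. The distal stretch nearest to Slc38a10 held 20 CpGs at 66.7% GC. A further distal stretch of 300 bases, near Zfp503 and not printed, held 12 CpGs at 60.7% GC. Its observed over expected CpG was lower, at 0.436.

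Wide peaks often had wide partners, but most were not wide in both libraries. The width in a peak's own library chose the members, so it is given only as a description: the median was 580 bp in replicate 1 and 600 bp in replicate 2, and the widest member had 1940 bp and 1960 bp. The width of the partner in the other library was not used by the rule, but the widest of several partners is taken, and 41.3% and 43.4% of wide peaks met 2 or more partners, against 3.75% and 3.64% of the others. How far the number of partners raised the widest width was not tested. The widest partner also reached 500 bp for 44.3% (42.0% to 46.6%) of the wide peaks of replicate 1, against 8.11% (7.87% to 8.36%) of its other shared peaks. In replicate 2 it did so for 24.3% (22.9% to 25.8%) of the wide peaks and 3.61% (3.44% to 3.78%) of the others. Over both libraries this share averaged 34.3% ± 14.1 for wide peaks and 5.86% ± 3.18 for the others (SD, n = 2). Most members were therefore narrower than 500 bp in the other library, with a median widest partner of 458 bp and 354 bp for wide peaks, against 219 bp and 220 bp for the others. Across all shared peaks of a library, Spearman's rho between a peak's width and its widest partner's was 0.410 over the 49760 peaks of replicate 1 and 0.414 over the 49123 of replicate 2, where the same cut sites underlie width and signal.

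Overlap with the other library was part of the rule, and a longer interval meets a partner by 1 bp more easily, so the following shares are a description. Of all peaks 500 bp or wider, 91.4% in replicate 1 and 91.9% in replicate 2 overlapped a peak of the other library, against 50.2% and 78.9% of the narrower peaks. Replicate 2 had fewer peaks but more wide members. Its signal step was coarser, at 0.00854 against 0.00591 in replicate 1, which means fewer tags if 1 step is 1 tag. The labels name sequencing instruments for replicate 1 only, and the part of depth or sequencing in the number of wide peaks was not tested.

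Many wide peaks adjoined a neighbour. In the deposited lists a peak can overlap its neighbour, and 48.2% of wide peaks in replicate 1 and 40.3% in replicate 2 overlapped another peak of their own list, against 2.72% and 3.21% of the others. In the stricter list of the same library, 45.9% and 38.6% of the wide peaks were met by 2 or more peaks, against 2.06% and 2.38% of the others. An overlap of 1 bp counts, so this share grows with the width that chose the members. Whether the stricter peaks were separate from each other was not tested. Without the wide peaks that overlap a neighbour in their own list, 919 and 1988 were left, and 8.05% and 6.19% of them were met by 2 or more stricter peaks. Few wide peaks vanished altogether at the stricter threshold: 2.71% and 2.79% had no stricter peak, against 12.9% and 36.9% of the others.

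Promoters of protein-coding genes held most of the wide peaks. A promoter is taken as the 1 kb on either side of any annotated start of a protein-coding transcript, and a peak is at a promoter when any part of it overlaps that window. In replicate 1, 66.9% (64.7% to 69.1%) of wide peaks lay at promoters, against 42.2% (41.7% to 42.6%) of the other shared peaks. In replicate 2 the shares were 79.4% (78.0% to 80.8%) of wide peaks and 40.1% (39.6% to 40.5%) of the others. The mean over the libraries was 73.2% ± 8.86 for wide peaks and 41.1% ± 1.5 for the others (SD, n = 2). The intervals of wide and other peaks were far apart in each library. A wider peak meets the promoter window more easily, and how far this raised the share was not tested. The share did not step at the minimum: it was 61.0% for replicate 1 peaks of 500 to 539 bp and 61.7% for those of 460 up to 500 bp, and 75.9% and 76.0% for the same widths in replicate 2. From 150 bp on it climbed with width, to 78.4% and 84.7% for peaks of 800 bp or more, against 22.2% and 18.8% for those of 150 up to 200 bp. Peaks under 150 bp stood above those of 150 up to 200 bp, at 35.8% and 22.4%.

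**Figure D1:**
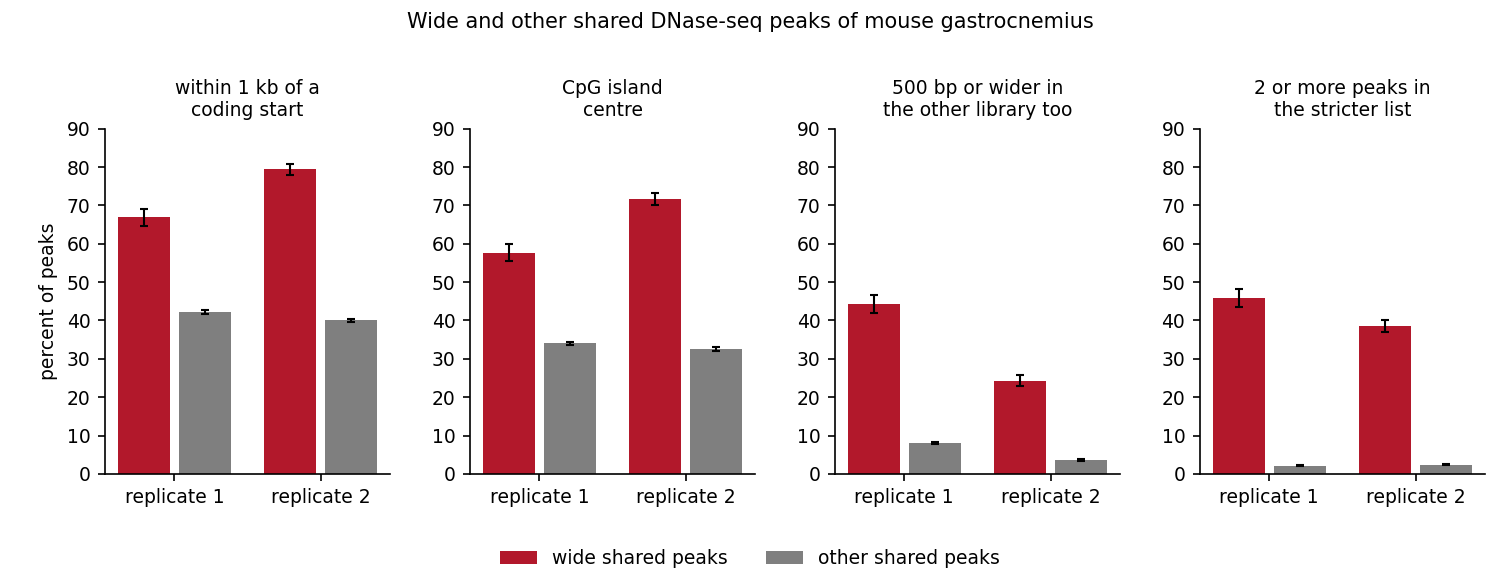
Percent of wide (red, left bar of each pair) and other (grey) shared peaks with the property named above each panel, in each library; error bars are Wilson 95% intervals. In both libraries the wide peaks stand above the others in all 4 panels, for example at 66.9% against 42.2% for promoters in replicate 1.

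The higher promoter share was also seen within groups of partner signal. Shared peaks were split into 4 equal groups by the signal of the strongest partner in the other library. Wide peaks were more often at promoters in every group of both libraries. Signal can still differ inside a group, as the highest of replicate 1 ran from 2.45 to 96.9. Wide peaks also more often had several partners to take the strongest from, and the effect of this was not tested. In the lowest group of replicate 1, 41.3% of 271 wide peaks and 20.5% of 12169 others lay at promoters. In its highest group the shares were 89.4% of 265 wide peaks and 77.1% of 12175 others. In replicate 2 the lowest group gave 77.8% of 528 wide peaks against 28.6% of 11753 others, and the highest 87.3% of 1031 against 75.9% of 11250.

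At promoters the wide peaks were the weaker ones. The signal is the authors' deposited value, read here as a tag density. Over all classes the median partner signal of wide peaks was 1.29 in replicate 1 and 1.56 in replicate 2, against 1.22 in both libraries for the others. That order was not stable in replicate 1, where the ratio of wide to other peaks was 1.05 but 0.921 in the stricter list and 0.973 with equally many peaks per library. Among promoter peaks the order turned round, with a median partner signal of 1.49 and 1.65 for wide peaks, against 2.21 and 2.17 for the others. The ratio of wide to other promoters was 0.672 and 0.762, a mean of 0.717 ± 0.0635 (SD, n = 2). Wide peaks were most frequent among promoters of low to middle signal: when promoter peaks were split into 5 equal groups by partner signal, they made up 5.46%, 9.94%, 8.31%, 2.40% and 1.59% of the groups of replicate 1, from lowest to highest signal. In replicate 2 the same groups gave 11.1%, 17.7%, 16.2%, 10.6% and 7.34%. The second group was the highest and the top group the lowest in both libraries.

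**Figure D2:**
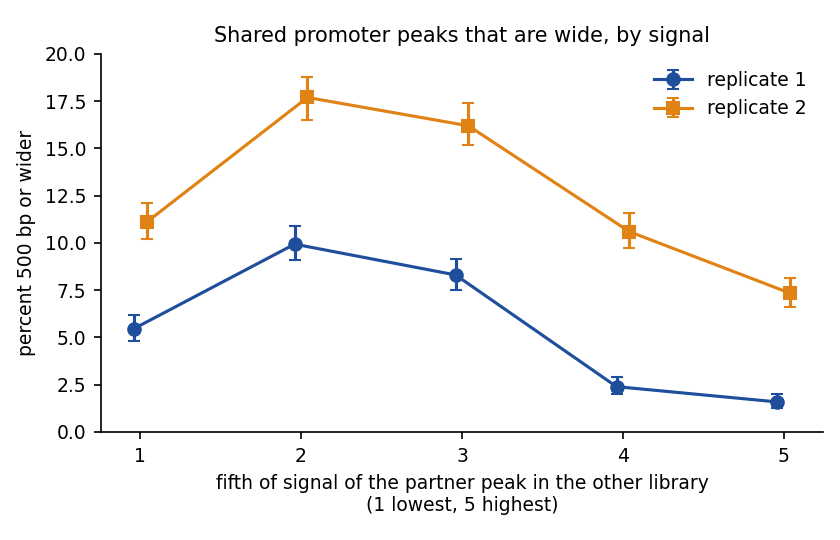
Percent of shared promoter peaks that were 500 bp or wider (y axis) in each of 5 equal groups by the signal of the partner peak in the other library (x axis, lowest to highest); points are libraries and bars Wilson 95% intervals. Both curves peak in the second group, at 9.94% and 17.7%, and are lowest in the top group, at 1.59% and 7.34%.

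Wide promoter peaks that covered a start reached farther on both sides of it. Upstream and downstream reach together make up the width that chose the members, so the longer reach is a description. Of those in replicate 1, 60.1% covered an annotated coding start, against 59.8% of other promoter peaks, and in replicate 2 71.7% did, against 58.9%. Among peaks that covered a start, wide ones extended a median of 323 bp downstream of it in replicate 1 and 316 bp in replicate 2, against 90 bp and 111 bp for the others. Upstream they extended 278 bp and 293 bp, against 141 bp and 144 bp. The median reach of other promoter peaks was thus longer upstream than downstream, while that of wide peaks was longer downstream. Peaks wholly upstream of their nearest start were rarer among wide promoter peaks, at 7.58% and 7.26%, against 17.3% and 17.6%. Peaks wholly downstream made up 32.4% of wide and 23.0% of other promoter peaks in replicate 1, but 21.1% of wide and 23.5% of other ones in replicate 2, so the libraries differed in direction. Wide promoters were also less often within 1 kb of the starts of 2 or more coding genes, at 6.15% and 8.59% against 9.78% and 9.86%, although the intervals overlapped in replicate 2 (7.58% to 9.71% against 9.44% to 10.3%).

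The centres of wide peaks were rich in CpG. A CpG island centre means a central 300 bp of at least 50% GC with an observed over expected CpG of at least 0.6. This held for 57.7% (55.4% to 59.9%) of wide peaks in replicate 1 and 71.7% (70.2% to 73.2%) in replicate 2, against 34.0% (33.6% to 34.5%) and 32.6% (32.1% to 33.0%) of the others. Within promoters the gap was smaller, at 76.5% and 82.1% against 69.3% in both libraries. Among distal peaks, which lie over 1 kb from any annotated start, it was 15.9% and 27.2% for wide peaks against 6.85% and 6.53% for the others. The stretch of CpG-rich DNA around the centre was longer too: of 10 windows of 200 bp around a promoter peak's midpoint, a median of 5 met the same limits at wide peaks in both libraries, against 3 at the others.

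Distal wide peaks numbered 515 in replicate 1 and 566 in replicate 2. Introns held 39.2% (35.1% to 43.5%) and 33.4% (29.6% to 37.4%) of them, against 45.3% and 45.5% of other distal peaks. Exons held 14.2% (11.4% to 17.5%) and 21.9% (18.7% to 25.5%), against 9.57% and 9.37%. A distal peak counts as exonic when any base overlaps an exon, and as intronic only otherwise. A wider peak meets an exon more easily, and how far this moved both shares was not tested. In replicate 2, 48.9% (44.8% to 53.1%) lay within 10 kb of a coding start, against 33.6% of the others. In replicate 1 the shares were 37.5% (33.4% to 41.7%) against 34.1% (33.5% to 34.7%), whose intervals overlap, so the libraries differ on how close to genes the distal members lie.

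Footprints, the short runs of protected bases that bound proteins leave inside a peak, were thinner per length in wide peaks. Counted with the footprints of the other library, wide peaks held 7.53 and 8.70 per kb, against 11.1 and 12.5 per kb in other shared peaks. The means were 8.11 ± 0.826 per kb for wide peaks and 11.8 ± 1.04 per kb for the others (SD, n = 2). The median number per peak was 4 and 5 for wide peaks against 2 for the others in both libraries, a count that grows with the width that chose the members. No footprint of the other library was met by 12.1% and 8.77% of wide peaks, against 14.4% and 12.7% of the others. Footprint calling depends on depth, and footprints come from the same cuts as the peaks, so these values are a description.

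Wide distal peaks rarely held the CTCF motif. In a search of both strands of the central 300 bp it was found in 0.777% (0.302% to 1.98%) of wide distal peaks in replicate 1 and 0.177% (0.0312% to 0.994%) in replicate 2, which is 4 of 515 and 1 of 566. Other shared distal peaks held it in 11.0% and 10.9%, or 9.13% and 7.02% when weighted to the GC content of the wide ones. A search of the whole peak, added after the values were seen because a wide peak's midpoint need not be its strongest point, found the motif in 2.14% and 1.59% of wide distal peaks, against 10.9% and 10.5% of the others, although the wide ones offer more sequence. The share peaked in narrow peaks: 21.1% of replicate 1 and 19.1% of replicate 2 distal peaks of 150 up to 200 bp held a match, and 0.885% and 0.313% of those of 500 up to 600 bp. For contrast, the stretch below holds such a match, in capitals, inside a shared intergenic peak of 240 bp in replicate 1 and 200 bp in replicate 2, with a signal of 8.83 in both. It was chosen after its values were seen, among the strongest narrower distal peaks with a match.
CTCF match in a narrow peak 12.6 kb downstream of a start of Rdh8, chr9:20831161-20831220, plus strand of mm10: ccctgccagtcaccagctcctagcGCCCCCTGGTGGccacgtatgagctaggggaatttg

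At promoters, motifs of several factors known for sharp promoter sites were rarer in wide peaks. NRF1, a regulator of mitochondrial and housekeeping genes whose site was searched as GCATGCGC, was found in the central 300 bp of 0.842% and 1.40% of wide promoter peaks, against 4.18% and 4.24% of the others. The ETS motif CCGGAAGT was found in 1.26% and 2.65% of wide peaks, against 5.43% and 5.28%. The CRE motif TGACGTCA, bound by CREB and ATF proteins, was found in 0.505% and 0.908%, against 2.68% and 2.61%. The CCAAT motif AGCCAAT, bound by NF-Y, was found in 3.45% and 4.65%, against 8.13% and 7.57%. Over the whole peak NRF1 was in 1.60% and 2.99% of wide promoter peaks, against 4.0% and 4.06% of the others, and CRE in 1.26% and 1.93%, against 2.62% and 2.58%. ETS was in 2.95% of wide and 5.24% of other peaks in replicate 1, and in 4.69% (3.95% to 5.56%) of wide and 5.18% of other peaks in replicate 2, where the interval holds the other value. The CCAAT motif was in 6.49% of wide and 7.73% of other peaks in replicate 1, but in 8.77% of wide and 7.06% of other peaks in replicate 2. The GC box GGGCGG of Sp and Kruppel-like factors was common in both kinds, at 64.4% and 67.1% of wide promoter peaks and 62.0% and 60.9% of the others. Weighted to the GC content of the wide peaks, the others held it in 72.3% and 71.9%. The myogenic E-box CAGCTG, bound by MyoD and its relatives, was in 34.8% and 32.7% of wide distal peaks, against 31.9% and 31.7%, with intervals for the wide ones (30.8% to 39% and 28.9% to 36.7%) that hold the other values. A match is a run of letters and not evidence of a bound protein.

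**Figure D3:**
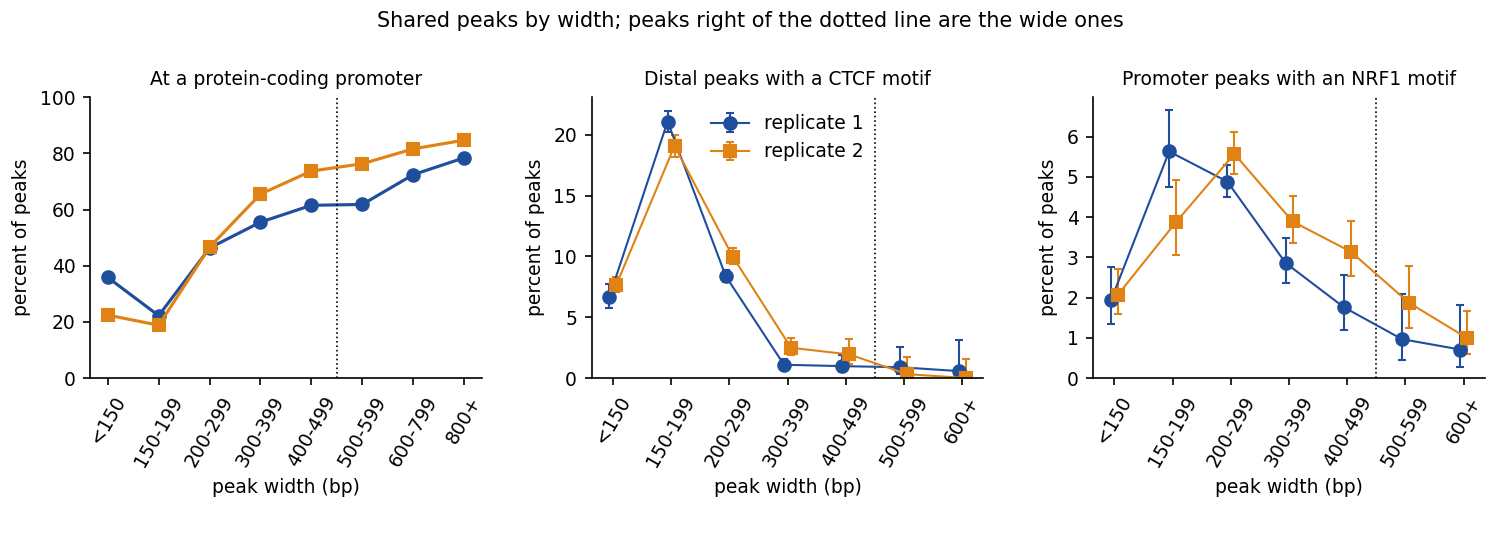
Percent of shared peaks by width (x axis, bp) that lie at a coding promoter (left), of distal peaks with a CTCF motif (middle) and of promoter peaks with an NRF1 motif (right) in the central 300 bp; colours are libraries, bars Wilson 95% intervals (middle and right) and the dotted line the 500 bp minimum. The promoter share climbs with width from 150 bp on, while the CTCF share falls to 2.49% or less at 300 up to 400 bp in both libraries.

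Where wide peaks of both libraries overlapped by 1 bp or more, the region was wide whichever library is read. The peaks of a pair may share only a short stretch. There were 886 such pairs, made by 785 members of replicate 1 and 809 of replicate 2, and they formed 724 separate regions. Of these, 589 lay at coding promoters, 105 were distal, 24 lay at starts of other genes and 6 were of mixed class. A CpG island centre was present in both libraries at 463 of the 589 promoter regions and 31 of the 105 distal ones. In 639 of the 724 the signal was higher in replicate 2, with a median ratio of replicate 1 over replicate 2 of 0.710. The same share over all shared peaks was not counted. For the other shared peaks of replicate 1, the median signal was 1.25 and that of the strongest partner 1.22. For those of replicate 2 the medians were 1.17 and 1.22. Only 55 regions were 800 bp or more in both libraries and 13 were 1000 bp or more in both.

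The widest promoter region lay at Jade2, which encodes a subunit of a histone acetyltransferase complex, and measured 1060 bp in replicate 1 and 1960 bp in replicate 2. Its signal was 1.09 and 1.78. At Hic1, a transcriptional repressor known in muscle from mesenchymal progenitors, the peaks were 1540 bp and 1388 bp with signals of 1.08 and 2.19. The Hic1 region lay inside the gene, 1.16 kb downstream of its nearest start at the centre. In the stricter lists it was met by 4 and 2 peaks, none over 460 bp. At Shisa3, an inhibitor of Wnt and FGF signalling, the peaks were 1300 bp and 1600 bp, at signals of 0.597 and 0.991. Npr1, a receptor for natriuretic peptides, had 1140 bp and 1660 bp. These 4 regions had signals below the median of all other promoter peaks of their library in replicate 1 (2.15), and all but that of Hic1 were below it in replicate 2 (2.16).

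Other regions in this group owed their rank to 1 library. At Cdk6, a cyclin D-dependent kinase, the peak was 1940 bp in replicate 1 and 700 bp in replicate 2. At Sema6a, a transmembrane semaphorin, it was 600 bp and 1920 bp. The remaining promoter regions of the 12 widest lay at Pcdh7 (1160 and 1280 bp), Gnb2 (980 and 1460 bp), Cables1 (940 and 1380 bp), Spred2 (1160 and 1140 bp), Mid2 on the X chromosome (980 and 1300 bp) and Mycl (1146 and 1112 bp). They encode a protocadherin, a G protein subunit, a kinase adaptor, a Ras-MAPK inhibitor, a microtubule-associated ubiquitin ligase and a Myc family factor, in that order. The peaks of Spred2 and Mycl differed least between the libraries. In the stricter lists the widest peak was 1160 and 1114 bp at Spred2, but 296 and 180 bp at Mycl.

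Distal regions wide in both libraries lay in exons, introns and intergenic DNA. A region at -34.4 kb from the nearest coding start, that of Slc38a10 (negative is upstream), overlapped an exon of the noncoding 2810410L24Rik and had 1180 and 820 bp. Exons carried several of the rest. The regions in exons of Mex3b, an RNA-binding protein, and Plec, the cytoskeletal linker plectin, had 760 and 1220 bp and 568 and 1200 bp. Those in exons of C1qtnf4, Isl2, a LIM homeobox factor, and Tmem200c had 720 and 1000 bp, 740 and 980 bp, and 1220 and 500 bp. The Mex3b peaks of the libraries shared only the 140 bases printed above. An intron of Nedd4l, a ubiquitin ligase, held a region of 600 and 1252 bp. Intergenic ones lay 7.06 kb downstream of a start of Zfp503 (1260 and 540 bp) and at -21.1 kb from a start of Gprc5c (680 and 1060 bp). Of the 22 ranked regions, 9 had a peak of 500 bp or more in the stricter lists of both libraries.

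**Figure D4:**
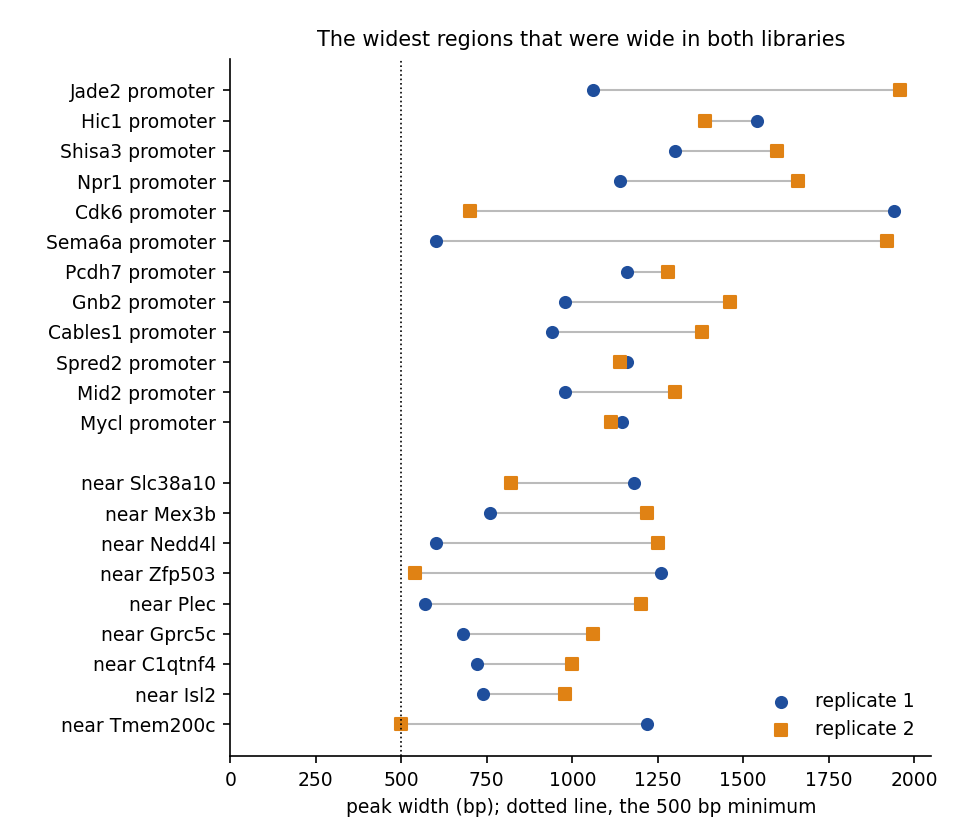
Width in bp (x axis) of the 12 widest promoter regions and 9 of the 10 widest distal regions that were wide in both libraries, 1 row a region, with a point for each library. Spred2 and Mycl have nearly the same width in both libraries, while Cdk6 (1940 and 700 bp) and Sema6a (600 and 1920 bp) lie far apart.

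Genes were then counted by their promoters. Of 13704 protein-coding genes with a shared promoter peak in both libraries, 669 had a wide promoter peak in both, which is 4.88%. In replicate 1 alone 1108 did (8.09%), and in replicate 2 alone 2458 did (17.9%). At 601 of the 669 the wide peaks of the libraries overlapped each other. Without the wide peaks that overlap a neighbour in their own list the share wide in both was 1.81%, and in the stricter lists it was 3.18%. The median widest promoter peak of a gene was 260 bp in replicate 1 and 320 bp in replicate 2. Each of 26 gene lists is described by its counts beside these values, with no test.

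The lists of muscle transcription factors and of atrophy and growth genes had 5 members each wide in both libraries, and are set beside the 4.88% wide in both, 8.09% wide in replicate 1 and 17.9% wide in replicate 2 over all 13704 genes. Among 21 myogenic and muscle transcription factors with a shared promoter peak, 5 were wide in both libraries (23.8%, with an interval of 10.6% to 45.1%), among them Eya4, Nfic and Maf. In replicate 1, 8 were wide and in replicate 2, 14, with a median widest promoter peak of 460 bp and 540 bp. The promoter peak of Eya4, a transcriptional coactivator, was 560 and 760 bp, and that of Maf 520 and 680 bp. Among 21 genes of atrophy and growth signalling, 5 were also wide in both: Fbxo32, Foxo3, Irs1, Fst and Acvr2b, with median widest peaks of 420 and 580 bp, and 5 were wide in replicate 1 and 13 in replicate 2. Fst, the secreted myostatin antagonist follistatin, had 1060 and 740 bp. Foxo3, a factor that turns on atrophy genes, had 980 and 700 bp. Fbxo32, the atrophy-induced ubiquitin ligase atrogin-1, had 620 and 1040 bp at signals of 2.67 and 2.60.

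Lists of the contractile and metabolic machinery lay on both sides of the 4.88% over all genes, with counts too small to set most of them apart from it. None of 12 fast sarcomere genes and none of 4 slow sarcomere genes with a shared promoter peak was wide in both, and 1 of 24 pan-fibre sarcomere and triad genes was, the small chaperone gene Cryab (665 and 540 bp). The fast genes had median widest peaks of 280 and 283 bp. Of 19 glycolysis and glycogen genes 3 were wide in both (15.8%, with an interval of 5.52% to 37.6%), namely Ldha (700 and 920 bp), Gapdh (540 and 540 bp) and Pkm (540 and 540 bp), which encode enzymes of glycolysis. Of 20 oxidative genes 1 was, the coactivator gene Ppargc1b (680 and 840 bp). None of 30 cytosolic ribosomal protein genes was wide in both, although 3 were in replicate 2, and their median widest peak was 230 and 300 bp.

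Markers of the other cells of muscle and further lists had up to 3 members wide in both, read beside the same 4.88% over all genes. Fibro-adipogenic progenitors and matrix had 3 of 19 (15.8%), namely Fbn1 (640 and 960 bp), Tcf7l2 (580 and 760 bp) and Twist1 (540 and 640 bp), and housekeeping genes of translation and cytoskeleton 3 of 22 (13.6%), namely Pabpc1 (780 and 540 bp), Eif4g2 (580 and 500 bp) and Gapdh. Immediate early genes had 2 of 24 (8.33%), Klf4 (580 and 700 bp) and Fosl2 (540 and 680 bp), with 10 of 24 wide in replicate 2 and 2 in replicate 1. Clock genes had 2 of 18 (11.1%), Per1 (520 and 560 bp), a repressor of the clock loop, and Rora, whose wide peaks did not overlap each other. Lists with a single member wide in both were endothelium (Flt1, a VEGF receptor), smooth muscle and pericytes (Tbx18), Schwann cells (Pmp22, a myelin protein), satellite cells (Spry1), Hox genes (Hoxd9), limb identity (Shox2), neuromuscular junction (Lrp4, the agrin receptor) and imprinted genes (Gnas). The wide peaks of Shox2, Lrp4 and Gnas did not overlap each other between the libraries. Tendon, leukocyte, hepatocyte, neuron, keratinocyte and germline lists had none among the 9, 3, 1, 6, 3 and 1 genes with a shared promoter peak.

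**Figure D5:**
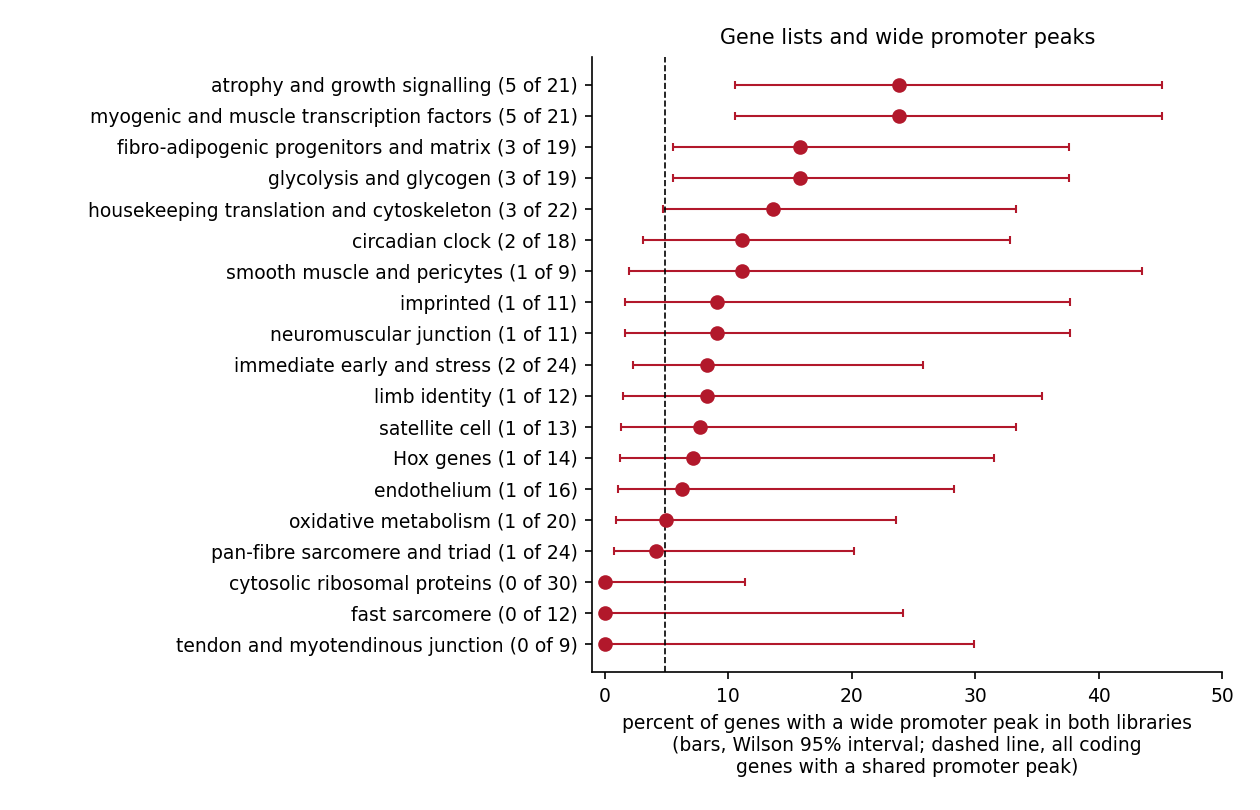
Percent of the genes of each list with a shared promoter peak that had a wide promoter peak in both libraries (x axis), for the 19 lists with at least 9 such genes; bars are Wilson 95% intervals and the dashed line is the 4.88% over all coding genes. The 2 lists at the top have 5 of 21 genes each, with an interval of 10.6% to 45.1%, while cytosolic ribosomal protein genes stand at 0 of 30.

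A gene of any of the 26 lists had the nearest coding start at 9 of the 105 distal regions wide in both libraries (8.57%, with an interval of 4.57% to 15.5%). Among all distal peaks it did so for 9.32% (7.10% to 12.1%) of wide and 4.70% (4.45% to 4.97%) of other ones in replicate 1, and for 7.77% (5.84% to 10.3%) of wide and 4.71% (4.46% to 4.98%) of other ones in replicate 2. Among these were Klf4 (500 and 660 bp, at -119 kb, with signals of 5.25 and 4.05), Nfix, Acta1, Hey1, Irs1, Tbx3, Sox17 and Peg3. The Acta1 region, 2.19 kb downstream of the start of the skeletal alpha-actin gene, had 600 and 631 bp. Its peaks overlapped only at their ends, at chr8:123892541-123893140 in replicate 1 and chr8:123891950-123892580 in replicate 2. The Peg3 region, in an intron 1.79 kb downstream of a start of this imprinted gene, had 660 and 780 bp at signals of 3.77 and 2.28. Klf4 and Peg3 were the regions of the 9 with higher signal in replicate 1.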

How the data were processed

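DNase-seq was read from the gastrocnemius libraries of 2 male mice. The authors deposited, for each library, a longer and a shorter peak list and a footprint list on mm10, derived from that library's own alignments per the README notes in the files. No source used here names the aligner or the peak caller. The deposited signal was read as a tag density. Its values are whole multiples of a fixed step in each library, 0.00591 in replicate 1 and 0.00854 in replicate 2. If 1 step is 1 tag, the depth was 169 M tags in replicate 1 and 117 M in replicate 2. This reading comes from the values. Footprints were used by position only, since the deposited p-value column holds the same threshold in every row. The shorter peak list is called stricter here.

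Members and gene lists were chosen with earlier results of these data known. Peaks 500 bp or wider that overlapped a peak of the other library by 1 bp or more were set against all other shared peaks. Classes come from GENCODE M21 and sequences from the RefSeq assembly of GRCm38. Motifs were searched on both strands, 21 in all, of which MEF2, SRF and CTCF are longer patterns given by name. Weighting to GC used bins of 5 percentage points. Named regions were the 12 widest promoter and 10 widest distal regions wide in both libraries, and up to 3 genes of each list. The results of 1 gene are not reported here. Wilson 95% intervals cover counting error, and SDs run over 2 libraries. No p-value was computed. Alternatives were other width minimums, overlaps and promoter definitions, the stricter list and single libraries. Merging overlapping peaks, leaving them out, whole-peak motif searches and gene families were added after values were seen. The steps, run in Python 3.11.15 with NumPy 2.4.6, pandas 2.3.3, SciPy 1.17.1 and Matplotlib 3.10.9, were tested on simulated peaks.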

Additional observations from a re-analysis of the deposited data

How the results depend on the processing

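Of 122 recomputed values that answer a comparison, 96 stayed within 1 SD or 1.5 times and 26 moved. These include values with 1 library left out. A single library always lies within 1 SD of the mean of 2, so those could not move, apart from the share of genes, which has no SD. For the X chromosome the mean of wide minus other was -0.0118 percentage points, and its sign depended on the setting. No other mean over the libraries changed direction. The signal ratio over all classes did so in replicate 1. There it was 1.05 and became 0.973 with equally many peaks per library and 0.921 in the stricter list. With a minimum of 400 bp there were on average 5481 wide peaks. Of these 25.7% met 2 or more stricter peaks, and 12.2% of genes were wide in both. With 700 bp there were 603, introns held 25.9% of the distal ones and the promoter signal ratio was 0.642. At that minimum 72.8% met 2 or more stricter peaks, and 0.912% of genes were wide in both. The stricter list gave 1520 wide peaks, 82.8% at promoters, 75.6% with a CpG island centre, 9.96 footprints per kb and 3.18% of genes. With equally many peaks per library, taken by signal, the promoter signal ratio was 0.652. Promoters of 500 bp either side gave a ratio of 0.644 and 4.32% of genes, and 2500 bp a ratio of 0.799. Promoters by the 5′ end of the gene gave 58.0% of wide peaks at promoters, 30.4% of distal ones in introns, a ratio of 0.618 and 4.0% of genes. Without wide peaks that overlap a neighbour in their list, a setting added after the values were seen, there were 1454. Of them 7.12% met 2 or more stricter peaks, and 1.81% of genes were wide in both. The share of genes was 8.09% to 17.9% with 1 library left out. The cause of these moves was not tested, beyond fewer or more peaks passing each setting.

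The direction of wide against other peaks was the same in both libraries in 11 of 11 settings compared for promoters, 11 of 11 for introns, 9 of 9 for CpG island centres, 8 of 8 for the partner's width, 8 of 8 for footprints and 7 of 7 for splitting. Of 126 motif values under other windows or settings, 25 stayed within 1 SD and 101 moved. Of the 22 named widths, 11 moved in the stricter list. No paired analysis was possible because there is 1 group. The part of depth in the widths was not tested.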

Other observations

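Gene families were chosen after their values were seen and are therefore given without a test. The share of members with a wide promoter peak in both libraries differed between them. It is set beside the 4.88% of all 13704 coding genes with a shared promoter peak. Among Sprouty and Spred genes, inhibitors of Ras-MAPK signalling, 4 of 6 were wide in both: Spred1, Spred2, Spry1 and Spry2. Smad and Bmp genes had 7 of 30, Fzd, Wnt and Fgf genes 6 of 36, and cyclin and Cdk genes 7 of 44. Homeobox genes had 12 of 81, forkhead, Sox and T-box genes 7 of 49, and Klf genes 3 of 15. Families of the protein synthesis and energy machinery had few or none: Rpl and Rps genes had 1 of 78, Mrp genes of the mitochondrial ribosome 0 of 77, Nduf genes of respiratory complex I 0 of 46 and Psm genes of the proteasome 0 of 46. Zfp genes had 14 of 331 and collagens 1 of 31.

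The X chromosome, present once in males, held 1.92% of wide peaks in replicate 1 and 3.12% in replicate 2, against 2.57% and 2.49% of other shared peaks, so the libraries differed in direction, as they also did in all 8 settings compared. Among autosomes the share of shared peaks that were wide was lowest on chromosome 1, at 1.96% and 4.81%, and highest on chromosome 19, at 4.38% and 8.29%. The MEF2 motif, bound by a family of muscle factors, was searched in the central 300 bp. Wide distal peaks held it in 5.44% in replicate 1 and 1.41% (0.718% to 2.76%) in replicate 2. Other distal peaks held it in 2.98% and 2.75%, so the libraries differed in direction, although the replicate 2 interval holds the other value. In the central 150 bp the wide peaks were above in both, at 1.75% and 1.06% against 1.21% and 0.917%. Over the whole peak they were too, at 7.57% and 2.83% against 1.88% and 1.30%, with more sequence to match. Wide peaks rarely lay mostly in repeats: 0.338% and 0.0901% had over 50% of their bases masked, against 1.47% and 1.70% of the others. How far the width that chose the members moved this share was not tested. The median masked part of a peak was 5.10% and 4.40% for wide peaks, against 0% for the others in both libraries. Its mean was 7.12% and 5.93% against 6.81% and 6.64%, so the libraries differed in direction.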
